A study of Mus musculus with 135 samples.

Results

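Of the 55416 genes in the count tables of mouse cortex and hippocampus, 7 genes of opioid receptors and opioid peptide precursors are described here. They were taken by symbol from a given list, which does not hold every opioid precursor gene: 4 receptor genes (Oprm1, Oprd1, Oprk1 and Oprl1) and 3 precursor genes (Pdyn, Pnoc and Pomc). Each symbol was matched to 1 row in both tables.

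Opioid peptides are cut from large precursor proteins and act on G protein-coupled receptors that inhibit adenylyl cyclase, open inwardly rectifying potassium channels and close presynaptic calcium channels. The mu receptor (Oprm1) and the delta receptor (Oprd1) bind beta-endorphin, which is cut from pro-opiomelanocortin (Pomc). The kappa receptor (Oprk1) binds the dynorphins from prodynorphin (Pdyn), and the nociceptin receptor (Oprl1) binds nociceptin from prepronociceptin (Pnoc). In the brain, prodynorphin is abundant in dentate granule cells and in projection neurons of the striatum, prepronociceptin is made by interneurons, and pro-opiomelanocortin is made mainly in the pituitary and the arcuate nucleus of the hypothalamus. The dynorphin and kappa receptor pair is studied for its part in stress and aversion, and the mu receptor is the main target of the opioid drugs used against sickle cell pain.

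The samples were polyA RNA-seq libraries of cortex and hippocampus from male humanized Townes mice, in which human globin genes replace those of the mouse. SS mice carry the human sickle beta globin and AA mice the normal human beta globin, so the AA controls are humanized too. RSD mice met an aggressive male intruder in their cage for 2 hours a day on 6 days (repeated social defeat, a stress paradigm), and minocycline, a tetracycline antibiotic, was given in the drinking water at 90 mg/kg from 1 day before RSD began. The mice were studied in 2 cohorts. The first was 6 months old, and the age of the second, which received minocycline or plain water, is not given in the sources used here. AA and SS alone denote mice with neither exposure, and exposed groups carry the exposure after the genotype, as in SS + RSD. The study tested mice of every group, AA and SS included, for behaviour after the RSD days. These tests included foot shocks, and brains were collected after them. In the cortex there were 12 libraries of AA mice, 2 of AA + RSD mice, 1 of an AA + minocycline mouse and 18 of AA + RSD + minocycline mice. The sickle groups held 8 libraries of SS mice, 6 of SS + RSD mice, 4 of SS + minocycline mice and 14 of SS + RSD + minocycline mice, each from a different mouse. The hippocampus held the same numbers except 11 AA and 7 SS libraries. These are bulk tissues, in which fewer cells of a type and less RNA per cell cannot be told apart.

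Total counts per library ranged from 16295042 to 107713193 (median 33848502) over 65 cortex libraries and from 12869149 to 68731008 (median 36523234) over 63 hippocampus libraries. In each tissue 1 SS + minocycline library and 1 AA + RSD + minocycline library held identical counts under different labels, and these were left out, as were the libraries of AA + RSD mouse 9674, whose tissues looked exchanged. The cortex library of that mouse had a dentate granule cell marker sum of 241 CPM (the count scaled by the library's total count) where the other cortex libraries reached at most 57.8, and its hippocampus library had a neocortical marker sum of 672 CPM where the other hippocampus libraries reached at most 461. The mouse numbers in the labels fall into separate runs, called here series A (5349 to 5400 and 9615 to 9674), B (5645 to 5900 and 9810 to 9910) and C (7037 to 7121 and 10633 to 10639), and the labels do not say what the runs stand for. All AA + RSD and SS + RSD mice were in series A and all mice given both RSD and minocycline were in series B or C, so minocycline in RSD mice and the series cannot be told apart. Untreated AA and SS mice came from series A and B, and SS + minocycline mice from series B and C. The cortex libraries of mice 9621, 9813 and 9890 had sums of 1500, 1214 and 861 CPM over 8 markers of striatal projection neurons against a median of 227, and sums of 292, 256 and 253 CPM over 6 markers of neocortical excitatory neurons against a median of 648.

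The precursors are shown by the stretch of coding sequence that holds the shared opioid core, because these stretches tell apart the peptides of genes whose RNA is compared below. Each line runs 5′ to 3′ on the coding strand of GRCm39 and spans 57 bases. The capitals mark the 12 bases that encode the 4 core residues, and the 6 bases before them encode a lysine-arginine pair at which the precursor is cut. The core is tyrosine-glycine-glycine-phenylalanine in Pdyn and Pomc and phenylalanine-glycine-glycine-phenylalanine in Pnoc.
Pdyn, dynorphin A: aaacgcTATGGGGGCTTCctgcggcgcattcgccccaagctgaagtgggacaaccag
Pdyn, dynorphin B: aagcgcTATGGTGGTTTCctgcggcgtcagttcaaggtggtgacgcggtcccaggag
Pnoc, nociceptin: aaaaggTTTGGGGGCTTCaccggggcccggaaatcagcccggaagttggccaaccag
Pomc, beta-endorphin: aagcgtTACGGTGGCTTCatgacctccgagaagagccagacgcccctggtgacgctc
The Pdyn stretches shown lie in exon 4 of 4 on the minus strand, at chr2:129530014-129530070 for dynorphin A and chr2:129529957-129530013 for dynorphin B. The Pnoc stretch lies in exon 3 of 4 at chr14:65642291-65642347 on the minus strand and the Pomc stretch in exon 3 of 3 at chr12:4010367-4010423 on the plus strand. Both Pdyn peptides shown come from 1 RNA, and the libraries count the RNA and not the peptides cut from it.

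In GRCm39, Oprm1 lies at chr10:6708506-6988198 on the plus strand, Oprd1 at chr4:131838037-131871842 on the minus strand, Oprk1 at chr1:5658667-5676375 on the plus strand and Oprl1 at chr2:181356605-181363728 on the plus strand. Pdyn lies at chr2:129528469-129541945 and Pnoc at chr14:65638122-65663196, both on the minus strand, and Pomc at chr12:4004944-4010642 on the plus strand. Oprm1 is overlapped on the other strand by Ipcef1, and the libraries were made with a directional kit. Ranked by CPM per kilobase of exon, the nociceptin receptor stood first in both tissues. In the cortex the medians over 65 libraries were 8.95 CPM per kilobase for Oprl1, 5.33 for Pdyn, 5.22 for Oprd1, 3.41 for Pnoc, 0.823 for Pomc, 0.413 for Oprk1 and 0.108 for Oprm1. Pdyn exceeded Oprd1 in 35 of 65 cortex libraries, so this pair had no fixed order, while Oprl1 exceeded Pdyn in 63 and Oprk1 exceeded Oprm1 in 65 of 65. In the hippocampus the medians over 63 libraries were 8.89 CPM per kilobase for Oprl1, 4.04 for Pnoc, 2.88 for Oprd1, 2.70 for Pdyn, 0.750 for Pomc, 0.153 for Oprk1 and 0.0878 for Oprm1. Oprd1 exceeded Pdyn in 38 of 63 and Oprk1 exceeded Oprm1 in 47 of 63 hippocampus libraries, and these 2 pairs were the least ordered there.

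Among the receptors, Oprl1 varied least from mouse to mouse and Oprm1 rested on the fewest reads. Oprl1 was at 46.03 ± 3.10 CPM (SD, n = 12) in AA cortex and 44.9 ± 2.09 CPM (SD, n = 8) in SS cortex, and all 65 cortex libraries lay between 33.6 and 59.3 CPM. Oprd1 was at 22.6 ± 3.21 CPM (SD, n = 12) in AA cortex and 23.6 ± 4.08 CPM (SD, n = 8) in SS cortex, with a span of 3.18 to 33.1 CPM over all cortex libraries. Oprk1 was at 3.68 ± 0.969 CPM (SD, n = 12) in AA cortex and 3.402 ± 0.930 CPM (SD, n = 8) in SS cortex. Oprm1, the receptor of morphine, was at 0.931 ± 0.276 CPM (SD, n = 12) in AA cortex and 0.659 ± 0.160 CPM (SD, n = 8) in SS cortex. Over the cortex libraries the Oprm1 count was 2 to 281 with a median of 27, and the SS + minocycline library with 2 counts had 0.0958 CPM with an exact (Clopper-Pearson) 95% interval of 0.0116 to 0.346 CPM. At the other end, the 281 counts of SS + RSD + minocycline mouse 9890 gave 3.65 CPM with an interval of 3.23 to 4.1 CPM. These intervals cover counting error only. They did not overlap, but the libraries were picked for the lowest and highest counts, so this describes only the extremes. The cortex library of mouse 9890 was also among those with high striatal marker sums.

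Among the precursors, Pdyn was at 31.5 ± 5.88 CPM (SD, n = 12) in AA cortex and 29.1 ± 4.43 CPM (SD, n = 8) in SS cortex. Pnoc was at 8.59 ± 1.59 CPM (SD, n = 12) in AA cortex and 7.94 ± 1.32 CPM (SD, n = 8) in SS cortex. Pomc was at 0.927 ± 0.376 CPM (SD, n = 12) in AA cortex and 1.25 ± 0.426 CPM (SD, n = 8) in SS cortex. In 1 AA + RSD + minocycline mouse, 5898, Pomc reached 32.6 CPM in the cortex and 66.9 CPM in the hippocampus, where the next highest libraries of that group had 1.67 and 2.46 CPM. The same libraries held growth hormone (Gh) at 21.98 and 21.14 CPM and prolactin (Prl) at 8.71 and 5.71 CPM, both pituitary hormone genes, and their sums over 5 pituitary markers were 32.6 and 28.3 CPM against medians of 0.0487 and 0.0971. SS + RSD + minocycline mouse 9895 had Pomc at 3.07 CPM in the cortex and 9.51 CPM in the hippocampus with Gh at 3.01 and 5.73 CPM. SS + RSD + minocycline mouse 5875 had Gh at 13.9 CPM in the cortex and Pomc at 1.89 CPM there, so the ratio of Gh to Pomc differed between mice.

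**Figure D1:**
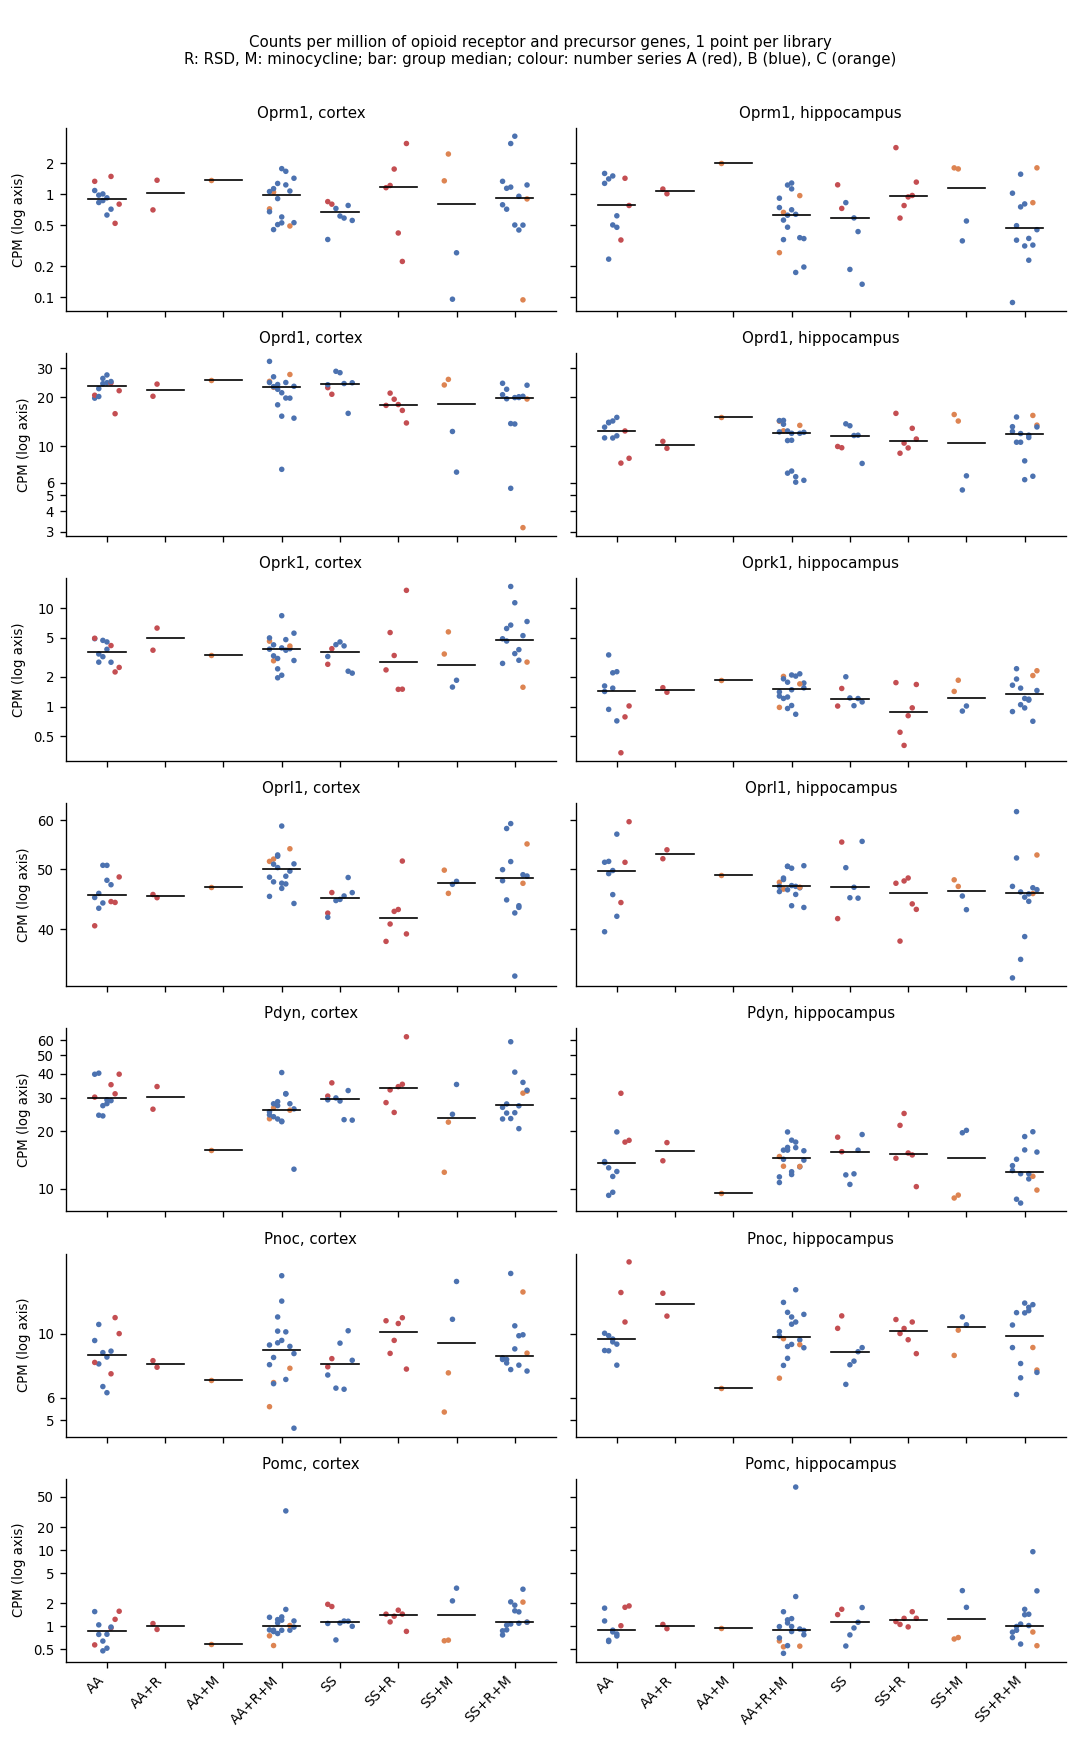
CPM of each opioid gene in every library of cortex (left) and hippocampus (right) by group, on log axes, with the group median as a bar and the mouse number series by colour. Oprl1 stays between 33.6 and 59.3 CPM in the cortex, Pomc stands at 32.6 and 66.9 CPM in 1 AA + RSD + minocycline mouse, and Oprd1, Oprk1 and Pdyn sit lower in the hippocampus than in the cortex.

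The tissues differed in 3 of the 7 genes, and the same 3 passed in AA and in SS mice: Oprk1, Pdyn and Oprd1 were lower in the hippocampus. Tests were edgeR's quasi-likelihood test over all genes with Benjamini-Hochberg adjustment, and a gene was called at an adjusted p under 0.05. Of 24187 genes tested, 26.7% were called between the tissues of AA mice (13.3% lower in the hippocampus) and 21.3% between those of SS mice (10.7% lower in the hippocampus). This fit treated libraries as independent, although 63 mice of all groups gave both tissues. With the mouse number as a block, 34% of genes were called in AA and 31.2% in SS mice, the same 3 opioid genes among them. Oprk1 had 2.25 to 4.95 CPM (median 3.62) in 12 AA cortex libraries and 0.339 to 3.35 CPM (median 1.43) in 11 AA hippocampus libraries, and the ranges overlapped. Its fitted log2 difference (hippocampus minus cortex) was -1.37 (SE 0.28, adjusted p = 2.29e-05) in AA mice and -1.40 (SE 0.34, adjusted p = 0.000768) in SS mice. Pdyn had 24.04 to 40.3 CPM (median 29.7) in AA cortex and 9.21 to 31.6 CPM (median 13.7) in AA hippocampus, where only mouse 9631 lay above the lowest cortex library. Its log2 difference was -1.06 (SE 0.17, adjusted p = 1.30e-07) in AA mice and -0.999 (SE 0.21, adjusted p = 8.56e-05) in SS mice. Oprd1 had 15.8 to 27.3 CPM (median 23.3) in AA cortex and 7.89 to 15.01 CPM (median 12.4) in AA hippocampus, with no overlap. Its log2 difference was -0.95 (SE 0.17, adjusted p = 3.76e-06) in AA mice and -1.11 (SE 0.22, adjusted p = 2.06e-05) in SS mice. In SS mice the cortex and hippocampus ranges of Oprk1, Pdyn and Oprd1 did not overlap. The share of all genes whose ranges stay apart between the tissues was not counted, so overlap is given here only as a description.

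The other 4 genes were not called between tissues. Oprl1 differed by 0.06 (95% interval -0.06 to 0.18) on the log2 scale in AA mice and by 0.09 (interval -0.06 to 0.24) in SS mice. Pnoc differed by 0.26 (interval -0.03 to 0.55) in AA mice and 0.14 (interval -0.22 to 0.51) in SS mice. The intervals were wider for Oprm1 (-0.80 to 0.68 in AA mice) and for Pomc (-0.98 to 1.40 in AA mice). Taken mouse by mouse, the CPM was higher in the cortex in 61 of 63 mice for Oprk1, in 62 for Pdyn and in 60 for Oprd1, with median hippocampus to cortex ratios of 0.369, 0.508 and 0.555. Pnoc was higher in the hippocampus in 44 of 63 mice, with a median ratio of 1.11. The counts for Oprl1, Oprm1 and Pomc were 36, 39 and 36 of 63 mice higher in the cortex, with median ratios of 0.980, 0.740 and 0.9598. Of the tissue markers, 5 of 5 dentate markers were higher and 5 of 6 neocortical markers and 5 of 8 striatal markers were lower in the hippocampus of AA mice, so the labelled tissues carried their defining genes.

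**Figure D2:**
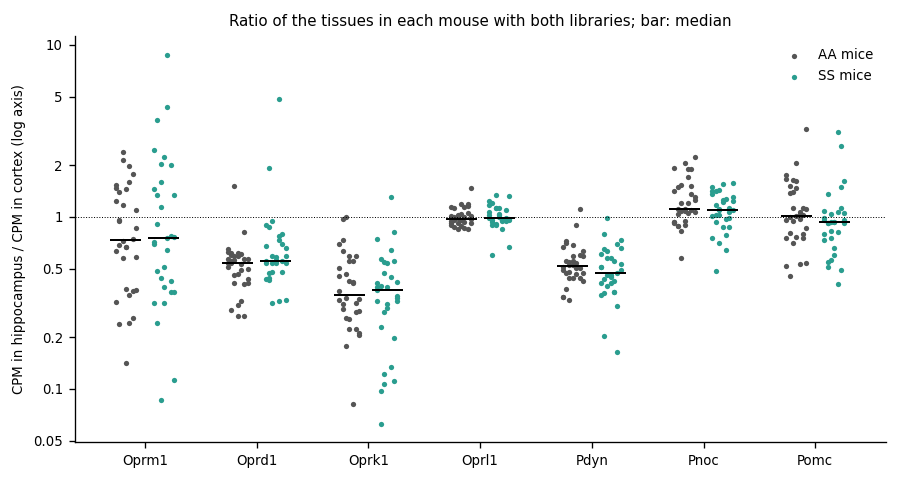
Ratio of CPM in hippocampus to CPM in cortex for each of 63 mice with both libraries, on a log axis, with AA mice in grey, SS mice in green and the median as a bar. Oprk1, Pdyn and Oprd1 lie below 1 in 61, 62 and 60 mice, and Oprl1 stays close to 1 with a median of 0.980.

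Other genes of opioid peptide handling and signalling were counted over a list of 43, of which all were tested. Between AA tissues 23 of 43 were called, 8 higher and 15 lower in the hippocampus, which is 53.5% of the list beside 26.7% of all genes, with a list median of -0.11 on the log2 scale against 0.02 over all genes. Between SS tissues 22 were called, 7 higher and 15 lower, which is 51.2% of the list beside 21.3% of all genes. The largest differences were those of Rgs4, which speeds the shutting off of inhibitory G proteins (-1.65 in AA and -1.79 in SS mice), Rgs14, another such regulator (1.38 and 1.39), Pcsk1, a convertase that cuts peptide precursors (-1.32 and -1.31), and Kcnj9, a subunit of the potassium channels that opioid receptors open (-0.95 and -0.996). Their adjusted p values by edgeR were at most 2.71e-08 in both genotypes.

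Over the 22 comparisons between groups, 154 tests of the 7 genes, none was called, by edgeR or by DESeq2. At an unadjusted p under 0.05 there were 10 by edgeR and 8 by DESeq2. Over all genes, edgeR gave such a p to 424 of 22870 genes (interaction, cortex) up to 5539 of 20701 (SS + RSD + minocycline against SS + RSD, hippocampus). The 10 are therefore not read as an excess. They include Pomc in comparisons with AA + RSD + minocycline mice, the group of mouse 5898. In 9 of the 22 comparisons no gene of the whole table was called either by edgeR, although 424 to 2867 genes had an unadjusted p under 0.05 there and DESeq2 called 0 to 79.

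SS and AA mice without RSD or minocycline were compared to ask whether the sickle genotype alone goes with other levels. In the cortex 0.206% and in the hippocampus 0.158% of all genes were called, and 0 of the 7. The 8 SS cortex libraries had 0.363 to 0.847 CPM of Oprm1 (median 0.670) and the 12 AA libraries 0.521 to 1.49 CPM (median 0.894). These ranges overlapped, and the log2 difference (SS minus AA) was -0.58 (interval -1.41 to 0.25, adjusted p = 0.718 by edgeR). In the hippocampus the Oprm1 difference was -0.64 (interval -1.53 to 0.25), from 0.134 to 1.23 CPM in 7 SS and 0.234 to 1.59 CPM in 11 AA libraries. For Oprl1 the interval was narrow, from -0.25 to 0.01 in the cortex and -0.20 to 0.11 in the hippocampus. The differences of Pdyn were -0.20 (interval -0.54 to 0.14) and -0.10 (interval -0.51 to 0.31), and those of Pnoc -0.20 (interval -0.54 to 0.15) and -0.28 (interval -0.59 to 0.04). All 3 of the red cell markers counted beside them (Alas2, Slc4a1 and Hba-x) were higher in SS mice in both tissues. Single libraries went against this. The marker sum reached 110 CPM in AA cortex (median 4.83), against 61.5 to 143 CPM in SS cortex. In SS + RSD + minocycline cortex it fell to 7.33 CPM. Mice 5844, 5853, 7078 and 9631 were singled out for red cell levels against their genotype label. They were kept here, and a fit without them called 0 of the 7. Whether their labels are right was not tested.

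RSD in AA mice was measured with 2 mice. AA + RSD mice 9643 and 9646 had 20.2 and 23.99 CPM of Oprd1, 3.74 and 6.28 CPM of Oprk1, and 26.1 and 34.3 CPM of Pdyn in the cortex. Against the 12 AA libraries these gave log2 differences of -0.03 (interval -0.55 to 0.49), 0.45 (interval -0.23 to 1.13) and -0.07 (interval -0.57 to 0.44). In the cortex 0% and in the hippocampus 0.0419% of all genes were called, and 0 of the 7. The hippocampus intervals ran from -0.80 to 0.30 for Oprd1, from -0.96 to 0.96 for Oprk1 and from -0.63 to 0.61 for Pdyn. Changes in either direction within these intervals are not settled by 2 mice.

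RSD in SS mice was measured with 6 mice, and 2.57% of all cortex genes and 3.11% of hippocampus genes were called, but 0 of the 7 opioid genes. All 6 were of series A, while most SS mice were of series B, and with the number series as a term 0% of genes were called in either tissue. In that fit only the unexposed SS mice, 2 of them of series A, link series A to series B. The 0% therefore cannot tell a series difference from a loss of power. In the cortex 0% were also called without the striatal-rich library of mouse 9621 and those of mice 9813 and 9890. The largest fitted difference was that of Oprm1. SS + RSD cortex libraries had 0.223, 0.420, 1.16, 1.21, 1.75 and 3.10 CPM of Oprm1, while the 8 SS libraries lay between 0.363 and 0.847. The SS + RSD mice thus held both the lowest and the 4 highest values, and the log2 difference was 1.096 (interval -0.09 to 2.29, p = 0.0695, adjusted p = 0.213 by edgeR). The 3.10 CPM were those of mouse 9621, and without the 3 striatal-rich libraries the difference was 0.64 (SE 0.52). In the hippocampus the 6 SS + RSD libraries had 0.587, 0.776, 0.939, 0.971, 1.31 and 2.83 CPM of Oprm1 against 0.134 to 1.23 in 7 SS libraries, a log2 difference of 1.13 (interval 0.01 to 2.25, adjusted p = 0.2495 by edgeR). Within series A, where 2 SS mice could be set against the 6, the hippocampus difference was 0.37 (SE 0.59, p = 0.544 by edgeR) and the cortex difference 0.67 (SE 0.82). The SS mice of series A had 0.728 and 1.23 CPM of Oprm1 in the hippocampus and those of series B 0.134 to 0.828.

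The nociceptin and dynorphin precursors showed smaller differences between SS + RSD and SS mice. Pnoc in the cortex had 7.54 to 11.4 CPM (median 10.2) in 6 SS + RSD and 6.42 to 10.2 CPM (median 7.88) in 8 SS libraries, a log2 difference of 0.42 (interval 0.02 to 0.83, adjusted p = 0.165 by edgeR). In the hippocampus its difference was 0.28 (interval -0.09 to 0.66), and within series A it was -0.08 (SE 0.14). Series itself went with Pnoc in unexposed hippocampus, where 3 AA mice of series A had 10.97 to 17.7 CPM and 8 of series B 7.78 to 10.03 CPM, and 2 SS mice of series A had 10.4 and 11.5 CPM and 5 of series B 6.67 to 8.94 CPM. The ranges of the series did not overlap in either genotype. How many other genes keep the series apart in this way was not counted. Pdyn in the cortex had 25.1 to 62.5 CPM (median 33.6) in SS + RSD and 22.8 to 35.8 CPM (median 29.5) in SS libraries, a log2 difference of 0.43 (interval -0.01 to 0.88), which was 0.22 (SE 0.18) without the striatal-rich libraries of mice 9621, 9813 and 9890. Oprk1 in the cortex had a difference of 0.65 (interval -0.29 to 1.59) with mouse 9621 at 15.2 CPM and the other 5 at 1.497 to 5.66 CPM, and -0.11 (SE 0.35) without those libraries.

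Minocycline without RSD was measured in 4 SS mice and 1 AA mouse. Against SS mice, 0% of all genes were called in either tissue and 0 of the 7. The 4 mice split by series: mice 9888 and 9889 of series B had 12.3 and 6.95 CPM of Oprd1 in the cortex and mice 7108 and 7121 of series C had 23.7 and 25.6, where SS libraries lay between 15.9 and 28.7. Oprm1 was at 0.0958 and 0.270 CPM in the mice of series B and at 1.35 and 2.45 CPM in those of series C. Pomc went the other way, with 2.16 and 3.16 CPM in series B and 0.646 and 0.659 CPM in series C, as did Pnoc with 11.2 and 15.2 CPM against 5.35 and 7.31 CPM. In the hippocampus Oprd1 was again lower in the mice of series B (5.40 and 6.59 CPM against 15.6 and 14.3), and Pdyn was higher there (19.6 and 20.2 CPM against 8.92 and 9.24). The pooled log2 differences from SS were -0.39 (interval -1.08 to 0.30) for Oprd1 and 0.38 (interval -0.08 to 0.84) for Pnoc in the cortex. With series B alone, 2 SS + minocycline against 6 SS mice, 27.14% of cortex genes were called by edgeR, and 3 of the 7: Oprd1 at -1.18 (SE 0.36), Pnoc at 0.90 (SE 0.27) and Pomc at 1.54 (SE 0.43). In the hippocampus 0% were called in the same series. The lone AA + minocycline mouse, of series C, had 25.6 CPM of Oprd1, 15.9 CPM of Pdyn and 6.89 CPM of Pnoc in the cortex, with no test.

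Minocycline in RSD mice was compared with RSD alone in each genotype, a contrast that also sets series B and C against series A. In SS mice 8.85% of all cortex genes and 5.96% of hippocampus genes were called, and 0 of the 7. With the number series as a term, 0% were called in either tissue. Here too only unexposed SS mice link series A to series B, so a loss of power cannot be told from a series difference. Pdyn had 20.6 to 58.9 CPM (median 27.5) in 14 SS + RSD + minocycline cortex libraries, a log2 difference from SS + RSD of -0.36 (interval -0.75 to 0.03, p = 0.0714 by edgeR). In the hippocampus Pdyn had 8.39 to 19.9 CPM (median 12.2) in 14 SS + RSD + minocycline and 10.2 to 24.8 CPM (median 15.2) in 6 SS + RSD libraries, a difference of -0.42 (interval -0.86 to 0.02, p = 0.0594 by edgeR). Oprm1 in the hippocampus had 0.0890 to 1.80 CPM (median 0.474) in SS + RSD + minocycline mice, and a difference of -0.90 (interval -1.85 to 0.05). In AA mice 0% of all cortex genes and 0.0419% of hippocampus genes were called between RSD with and without minocycline, and 0 of the 7. With the number series as a term these shares were 5.57% and 6.42%, and still 0 of the 7 were called.

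SS + RSD + minocycline mice were also set against SS mice, with 0% of genes called in both tissues, and AA + RSD + minocycline mice against AA mice, with 0.0503% called in the cortex and 0% in the hippocampus. Between the AA groups, a fit with a number series term called 3.81% and 3.86%. None of the 7 was called in either fit. Pdyn in the cortex of AA mice had 12.6 to 40.6 CPM (median 25.97) with both exposures and 24.04 to 40.3 CPM (median 29.7) without, a log2 difference of -0.30 (interval -0.54 to -0.06, adjusted p = 0.573 by edgeR). For Pomc the differences of 1.54 (interval 0.37 to 2.72) in the cortex and 2.13 (interval 0.49 to 3.77) in the hippocampus became 0.11 (SE 0.18) and -0.17 (SE 0.25) without mouse 5898. Oprd1 in the cortex had 3.18 to 24.3 CPM (median 19.9) in SS + RSD + minocycline and 15.9 to 28.7 CPM (median 23.98) in SS mice, a difference of -0.42 (interval -0.91 to 0.06).

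The genotypes were compared under both exposures, in 14 SS and 18 AA mice of series B and C, with 0.599% of all genes called in the cortex and 2.73% in the hippocampus, and 0 of the 7. Oprk1 in the cortex had 1.57 to 16.6 CPM (median 4.77) in SS + RSD + minocycline and 1.96 to 8.39 CPM (median 3.85) in AA + RSD + minocycline mice. Its log2 difference of 0.50 (interval 0.01 to 1.00, adjusted p = 0.549 by edgeR) was 0.12 (SE 0.20) without the cortex libraries of mice 9621, 9813 and 9890. Of the striatal markers, 6 of 8 were called higher in the same comparison, with sums of 157 to 1214 CPM in SS and 149 to 366 CPM in AA mice. Oprd1 in the cortex had 3.18 to 24.3 CPM in SS and 7.22 to 33.1 CPM (median 23.04) in AA mice, a difference of -0.35 (interval -0.68 to -0.02, adjusted p = 0.522 by edgeR). Pomc had 0.771 to 3.07 CPM (median 1.13) in SS and 0.560 to 32.6 CPM (median 1.00) in AA cortex. Its fitted differences were -1.02 (SE 0.43) in the cortex and -1.44 (SE 0.58) in the hippocampus. Without mouse 5898 they turned to 0.46 (SE 0.20) and 0.87 (SE 0.31), neither called, so 1 mouse set their negative sign. SS + RSD + minocycline mouse 9895 stayed in that fit. Its hippocampal Pomc was 9.51 CPM, where the median of its group was 1.01 CPM. How much of the 0.87 rests on mouse 9895 was not tested.

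Under RSD alone, 6 SS were set against 2 AA mice, with 0% of genes called in the cortex and 0.0171% in the hippocampus, and 0 of the 7. The difference between the RSD effects of the genotypes, tested as an interaction, was called for 0% of cortex genes and 0.0128% of hippocampus genes, and again for 0 of the 7. The interaction was 0.93 (interval -0.78 to 2.63) for Oprm1 and 0.51 (interval -0.20 to 1.23) for Pnoc in the cortex, and 0.89 (interval -0.89 to 2.68) and 0.01 (interval -0.61 to 0.63) in the hippocampus.

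**Figure D3:**
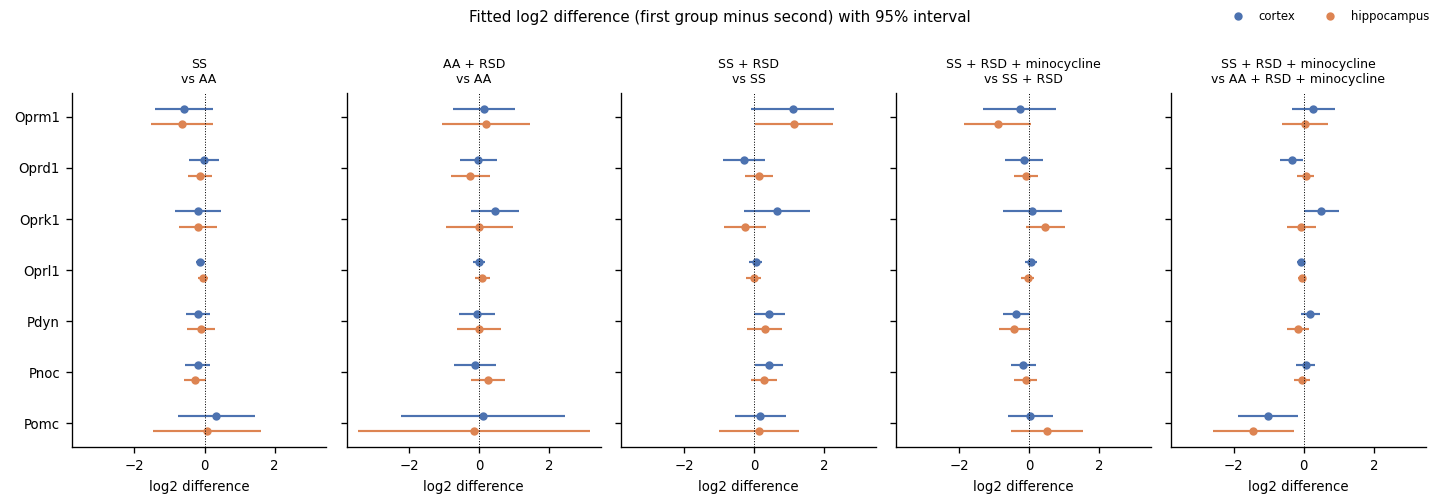
Fitted log2 difference of each opioid gene (first group minus second) with its 95% interval in 5 of the group comparisons, cortex in blue and hippocampus in orange. The intervals of Oprl1 are the narrowest, those of Oprm1 and Pomc the widest, and the 2 Pomc differences at the right, -1.02 and -1.44, rest on mouse 5898.

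Within groups, the levels of several opioid genes went with markers of the cells or regions that a sample could hold. Group means were subtracted on the log2 CPM scale, and 210 relations were computed in all, with permutation p values (two-sided, 100000 resamples) adjusted over the 210. For r, 82 of the 210 had an adjusted p under 0.05, so passing was common, and those named are a selection. Both measures of a relation come from the same library and share its depth and composition. Oprk1 in the cortex followed the sum of the striatal markers, among them the dopamine receptor genes Drd1 and Drd2, with r = 0.82 and rho = 0.72 over 64 libraries (permutation, adjusted p = 0.0001 for r, the smallest these permutations give, and 9.13e-05 for rho). Without the 2 libraries farthest from the median r was 0.72, while series A alone gave 0.93 and series B alone 0.78. The libraries of mice 9621, 9813 and 9890 had 15.2, 16.6 and 11.4 CPM of Oprk1 and 62.5, 58.9 and 40.8 CPM of Pdyn, at the top of the striatal axis. Oprm1 and Pdyn followed the same sum with r = 0.57 each (rho = 0.43 and 0.47, permutation, adjusted p = 0.0001 for both r, 0.00196 and 0.000829 for rho). Without the 2 farthest libraries these were 0.57 and 0.50, while series A alone gave 0.72 and 0.83 and series B alone 0.51 and 0.60. In all relations the 2 farthest were chosen by the level of an opioid gene and not by the markers. Not all of the striatal-rich libraries were therefore removed, and the relations without all of them were not computed.

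In the hippocampus Pdyn followed the sum of 5 dentate granule cell markers (Prox1, Dsp, C1ql2, Lct and Tdo2) with r = 0.70 and rho = 0.65 over 62 libraries (permutation, adjusted p = 0.0001 and 9.13e-05), 0.64 without the 2 farthest, 0.95 within series A and 0.60 within series B. Oprk1 ran against the same sum with r = -0.64 and rho = -0.57 (permutation, adjusted p = 0.0001 and 9.13e-05), -0.55 without the 2 farthest, -0.87 within series A and -0.50 within series B. AA mouse 9631 had the highest dentate sum of 559 CPM, the highest Pdyn of 31.6 CPM and the lowest Oprk1 of 0.339 CPM of the AA hippocampus libraries. It is among the mice whose red cell markers went against their genotype label. Pnoc followed the sum of 8 interneuron markers in both tissues, with r = 0.60 and rho = 0.68 in the cortex and r = 0.65 and rho = 0.64 in the hippocampus (permutation, adjusted p = 0.0001 for r and 9.13e-05 for rho in each). Without the 2 farthest libraries r was 0.64 and 0.68, and within series A it was 0.71 and 0.39 and within series B 0.43 and 0.60. The 8 markers were Gad1, Gad2, Sst, Pvalb, Vip, Npy, Lhx6 and Cck. The sum adds their CPM, so abundant genes weigh most, and the markers were not tested singly.

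Pomc followed the 5 pituitary markers (Gh, Prl, Tshb, Cga and Pou1f1) with r = 0.68 and rho = 0.48 in the cortex and r = 0.82 and rho = 0.71 in the hippocampus (permutation, adjusted p = 0.0001 for both r, 0.0002625 and 9.13e-05 for rho). Without the 2 farthest libraries r was 0.43 and 0.65. The relation held in series B (0.79 and 0.83) and not in series A (-0.11 and 0.10), whose cortex and hippocampus libraries numbered 14 and 13. Beside these, Oprd1 went with the percent of reads that lay outside annotated genes, which ran from 3.69 to 13.9 in the cortex and 3.98 to 24.01 in the hippocampus. Its r was 0.46 in the cortex (rho = 0.33, permutation, adjusted p = 0.000573 and 0.0220) and 0.57 in the hippocampus (rho = 0.57, permutation, adjusted p = 0.0001 and 9.13e-05). Without the 2 farthest these were 0.39 and 0.54, and within series A only 0.13 and -0.07, against 0.40 and 0.56 in series B. What moves Oprd1 with that share was not tested.

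**Figure D4:**
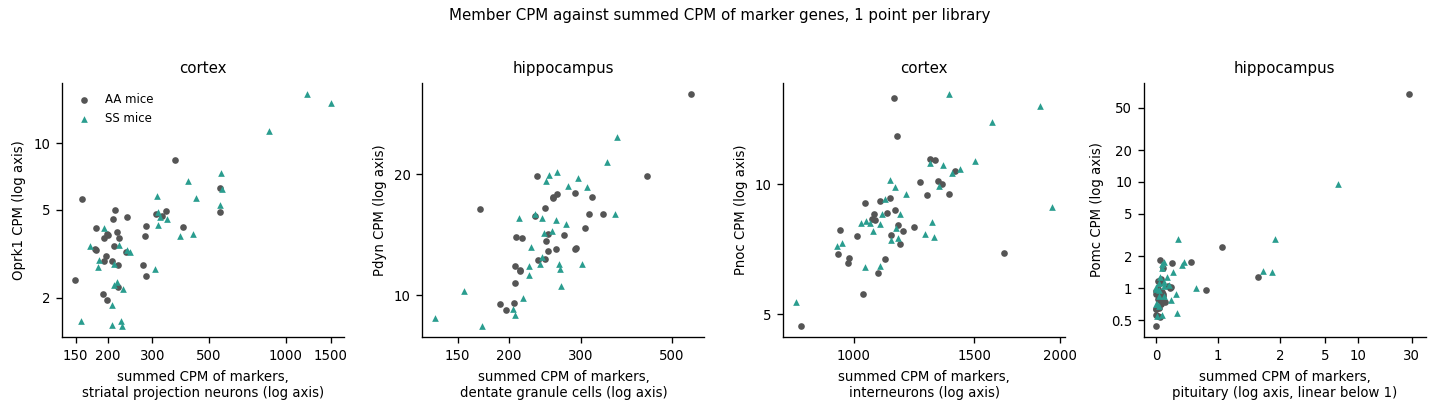
CPM of 4 opioid genes against the summed CPM of marker genes, 1 point per library, AA mice as grey circles and SS mice as green triangles, on log axes (the pituitary axis is linear below 1). Oprk1 in the cortex climbs with striatal markers up to 16.6 CPM, Pdyn with dentate markers, Pnoc with interneuron markers, and 1 hippocampus library stands apart with Pomc at 66.9 CPM.

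Pairs of opioid genes also went together or ran against each other within groups. In the cortex Oprm1 and Oprk1 had r = 0.74 and rho = 0.61 (permutation, adjusted p = 0.0001 and 9.13e-05), 0.70 without the 2 farthest libraries, 0.86 within series A and 0.63 within series B. Oprd1 and Pnoc had r = -0.62 and rho = -0.52 there (permutation, adjusted p = 0.0001 and 0.0001615), -0.54 without the 2 farthest, -0.29 within series A and -0.55 within series B. In the hippocampus Oprd1 ran against Pdyn with r = -0.68 and rho = -0.65 (permutation, adjusted p = 0.0001 and 9.13e-05), -0.65 without the 2 farthest, -0.48 within series A and -0.62 within series B. The ligand and receptor pair of Pdyn and Oprk1 had r = -0.65 and rho = -0.56 in the hippocampus (permutation, adjusted p = 0.0001 and 0.0002625), -0.55 without the 2 farthest, -0.92 in series A alone and -0.39 in series B alone, and it was not past the threshold in the cortex. The pair of Pnoc and Oprl1 was past the threshold in neither tissue.

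**Figure D5:**
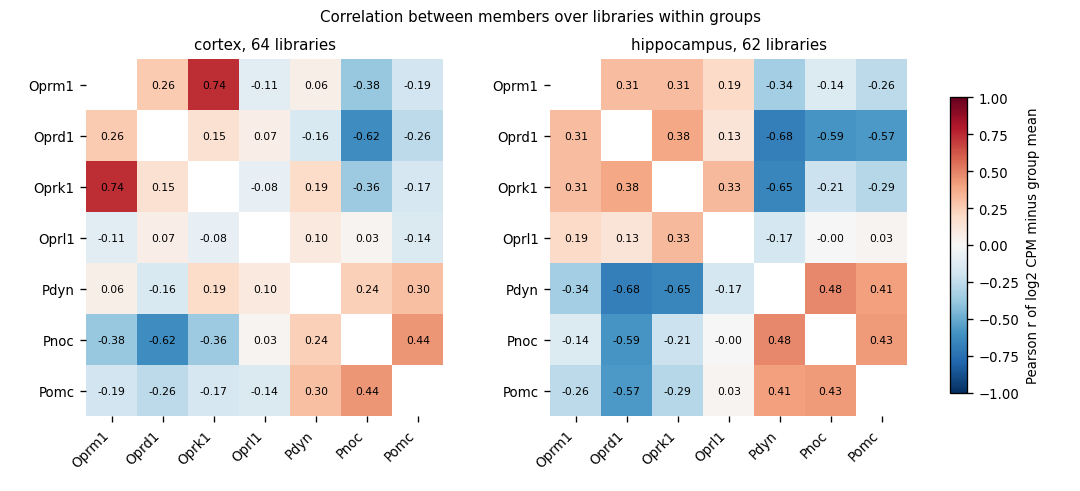
Pearson r between the opioid genes over 64 cortex and 62 hippocampus libraries after subtracting group means on the log2 CPM scale, red for positive and blue for negative values. Oprm1 with Oprk1 reaches 0.74 in the cortex, and in the hippocampus Oprd1 and Oprk1 run against Pdyn at -0.68 and -0.65.

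The genes whose levels were most like those of an opioid gene were found among genes whose mean log2 CPM reached 1, by Pearson r within groups, for opioid genes with a median count of at least 50. In the cortex Oprd1 was like the potassium channel genes Kcna1 (r = 0.91) and Kcnj6 (0.89), Oprk1 like Cyld (0.88) and Dgkb (0.86), and Pdyn like Ppp1r1b (0.74), Pde1b (0.73) and Rasd2 (0.73). Pnoc was most like Hes6 (0.83), the interneuron peptide gene Sst (0.83) and Capzb (0.83), and Oprl1 like Wdr5 (0.64), Ip6k1 (0.61) and Ap1b1 (0.59). In the hippocampus Pdyn was most like Prox1os (0.89), a transcript antisense to the dentate granule cell gene Prox1, Ntf3 (0.87) and Hpdl (0.86). Oprd1 was most like Ank1 (0.91), Slc7a1 (0.91) and Map3k9 (0.91) there, Pnoc like Slc35e4 (0.80), B3galt4 (0.78) and Tmbim6 (0.77), and Oprl1 like Slc2a3 (0.72), Amz1 (0.72) and Slc37a3 (0.66).

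Of the 43 other genes of opioid peptide handling and signalling, few were called between groups. In SS + RSD against SS mice, 2 of 43 passed in each tissue, which is 4.65% of the list beside 2.57% and 3.11% of all genes. Ece2, a peptide-degrading enzyme, fell from 3.23 ± 1.43 CPM (SD, n = 8) to 1.07 ± 0.422 CPM (SD, n = 6) in the cortex, a log2 difference of -1.47 (adjusted p = 0.0447 by edgeR), and by the same -1.47 in the hippocampus (adjusted p = 0.0439 by edgeR). Ece2 shares its strand and locus with the readthrough transcript Eef1ece2, so reads may be split between them and its level is uncertain. Gnb1, a G protein beta subunit, rose by 0.25 in the cortex (adjusted p = 0.0472 by edgeR) and Pcsk2, a convertase of prodynorphin, by 0.32 in the hippocampus (adjusted p = 0.0430 by edgeR). In SS + RSD + minocycline against SS + RSD mice, 5 of 43 passed in the cortex, 11.6% of the list beside 8.85% of all genes: Ece2 rose by 1.55, and Pcsk1 (-0.59), Grk2, a receptor kinase (-0.32), and Gnb1 (-0.26) fell, as did the amidating enzyme gene Pam (-0.23), which was named after its values were seen. Only Ece2 (1.38) passed in the hippocampus, 2.33% of the list beside 5.96% of all genes. None of these calls between groups of SS mice held with the number series as a term. In that fit only unexposed SS mice link series A to series B. Between SS + RSD and SS mice, Ece2 passed in 7 of 18 alternatives in the cortex and 7 of 17 in the hippocampus, Gnb1 in 4 of 18 and Pcsk2 in 7 of 17. Between SS + RSD + minocycline and SS + RSD mice, Ece2 passed in 15 of 17 alternatives in the cortex and 8 of 16 in the hippocampus, Gnb1 in 13 of 17, Pcsk1 in 9, Grk2 in 8 and Pam in 7. In SS + RSD + minocycline against AA + RSD + minocycline cortex 1 of 43 passed, Rgs9, a regulator of G proteins that is also one of the striatal markers, at 1.27 (adjusted p = 0.00731 by edgeR). It passed in 11 of 13 alternatives and did not pass without the cortex libraries of mice 9621, 9813 and 9890. In the other 17 comparisons between groups 0 of 43 passed.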

How the data were processed

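RNA of cortex and hippocampus was sequenced from directional polyA libraries. The authors aligned the reads to GRCm39 with STAR, which wrote a count of reads per gene of the GENCODE annotation, and deposited 1 table of whole-number gene counts per tissue; tool versions are not given in the sources used here. Of 135 samples, 134 had usable labels and 1 had tissue labels that contradict each other. 3 table columns matched no sample and were not used. CPM is the count scaled by the total count of that library.

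Genes were tested with edgeR 4.0.16 in R 4.3.3 (low-count filter by group, TMM scaling, quasi-likelihood test, Benjamini-Hochberg adjustment over all genes, threshold 0.05), in 1 model per genotype and tissue for comparisons within a genotype, and in models over all groups for comparisons between genotypes and between tissues. DESeq2 1.42.0 was an alternative. Identical libraries and both libraries of mouse 9674 were left out. The others tried were RLE size factors, no low-count filter, the left-out libraries kept, other libraries left out, only the groups compared, the number series or the share of reads outside genes as a term, and 1 series only. The fits were tested on simulated data.

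Cortex and hippocampus libraries of 1 number were taken to come from the same mouse. Over 62 mice and 13124 genes, deviations from the group means had a median correlation of 0.588 within a number. The lowest was -0.209. Between mice of the same group the median was -0.041, a value that subtracting group means lowers by construction. The library of the same number was the best match in its group for 41 of the 62. Relations used log2 CPM with a prior count of 2.

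The opioid genes were always named; of the list of 43 genes, at most 4 called genes of the largest change were named per comparison, and up to 3 of the most alike genes per opioid gene. Some items that these rules select are not reported here. The genes and lists were chosen with earlier results of these data known.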

Additional observations from a re-analysis of the deposited data

Results flagged for a closer look

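In 4 of 42 tests of a group's highest or lowest library, that library lay far from the others of its group; chance flags about 1 in 20. The tests covered only the SS, SS + RSD and SS + minocycline groups. All 4 flags were in SS + RSD mice. No AA group and no SS + RSD + minocycline group was tested this way, so the flags do not set SS + RSD mice apart from those groups. Oprk1 in the cortex was 15.2 CPM in mouse 9621 against 1.497 to 5.66 CPM in the other mice, and Pdyn was 62.5 CPM in the same library against 25.1 to 35.2 CPM. That library also had the highest sum of striatal markers, 1500 CPM; its part in these levels was not tested. Oprl1 in the cortex was 51.6 CPM in mouse 9616 against 38.2 to 43.03 CPM. Oprm1 in the hippocampus was 2.83 CPM in mouse 5354, from 71 counts with an exact 95% interval of 2.21 to 3.57 CPM, against 0.587 to 1.31 CPM.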

How the results depend on the processing

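No opioid gene was called between groups under any alternative except 1. For SS + minocycline against SS cortex with number series B only, 2 against 6 mice, 3 were called by edgeR, Oprd1 (-1.18), Pomc (1.54) and Pnoc (0.90), where 27.14% of all genes were called; the cause was not tested. Over the 154 results between groups, 2275 alternative values were computed, of which 222 changed sign without being called. Leaving out 1 mouse at a time of the AA + RSD, SS + minocycline and SS + RSD groups, in 14 comparisons, called 0 opioid genes each time. Mice of the other groups were not left out in turn. With the mouse number as a replicate block, the same 3 opioid genes were called between tissues in AA (Oprk1 -1.55, Pdyn -1.12, Oprd1 -0.99) and in SS mice (-1.31, -1.003 and -1.05), and the block changed no other call of theirs. Of the other list, a fit with number series as a term turned the sign of Ece2 (-0.15 in cortex, -0.10 in hippocampus) and of Gnb1 (0.0087 in cortex) in SS + RSD + minocycline against SS + RSD mice, and series C only turned that of Rgs9 (-0.31) in SS + RSD + minocycline against AA + RSD + minocycline cortex. The share of genes called between SS + RSD and SS cortex ran from 0% with the number series as a term to 19.25% with only the groups compared. Of 82 relations past the threshold, all kept their sign without the 2 farthest libraries and in series B, and 61 did in series A. The removal of mouse 5898, of the striatal-rich libraries, and the alternatives for relations were chosen after seeing the data. Oprm1 and Pomc rest on median counts of 25 to 38, which limits what could be detected for them.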

Other observations

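The libraries of AA + RSD mouse 9674, left out of the tests, held 17.4 CPM of Pdyn and 0.896 CPM of Oprk1 under the cortex label and 43.8 and 2.10 CPM under the hippocampus label. Pomc in the library labelled hippocampus was 8.16 CPM, with Gh at 1.23 CPM. In the AA + minocycline mouse, Oprm1 was 1.37 CPM in the cortex and 2.003 CPM in the hippocampus, and Pdyn in the hippocampus was 9.50 CPM.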
